A study of Mus musculus with 753 samples.

Results

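Gata6 lineage-negative (lin-) keratinocytes of healing wounds were compared between day 11 and day 9 after wounding. They are the tdTomato-negative cells of the deposited annotation at these days, 145 of 684 annotated cells, and were chosen by the annotation alone. They form 4 sets, of 28 and 44 cells at day 9 and of 26 and 47 cells at day 11. Each set holds the cells of 1 mouse, by the study's methods, and the first number of each pair is replicate 1 and the second replicate 2.

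The mice carried 1 copy of a Gata6EFGPCreERT2 allele (spelled as in the labels) and 1 copy of Rosa26-fl/STOP/fl-tdTomato. The Cre recombinase is made where the transcription factor Gata6 is made, in the upper follicle and the duct of the sebaceous gland, and 4-hydroxytamoxifen on the back skin of adult mice switched it on before a full-thickness wound was made. Both groups, and the unwounded skin (day 0) and day 6 wounds used beside them, carry these alleles and this treatment. A lin- cell is a cell without the label, so a cell of the Gata6 lineage in which recombination did not occur counts as lin-. By the study's methods, wound samples were mixed with epidermal cells of GFP mice as a carrier, which were then removed by sorting, and cells without CD45, with and without Itga6, were kept. Cells were sequenced singly with the Smart-seq2 protocol, a full-length method that has no molecular identifiers. Strain background was C57BL/6J or mixed, by the study's methods.

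Once a wound is covered by new epidermis, proliferation subsides and the resting layers are rebuilt. Keratinocytes at a wound edge switch on the keratins Krt6, Krt16 and Krt17, divide, and migrate over the wound bed. The basal layer of the interfollicular epidermis and the hair follicle supply the cells. By the study, Lrig1 lineage cells reach the interfollicular epidermis of a wound before Gata6 lineage cells. The interfollicular basal layer and the outer bulge of the follicle do not normally express Gata6.

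Transcripts related to the sorting were read first. Gata6 was near 0 in lin- cells, at 0.470 and 0.119 ppm in replicate 1 (day 9, then day 11) and at 0.00196 and 4.73 in replicate 2, with reads in 2.27% to 7.14% of cells. In lin+ cells of the same skin it was 9.92 and 14.2 in replicate 1 and 26.9 and 17.7 in replicate 2. The label is tdTomato, and the study reports that lin+ cells lose Gata6 on reaching the interfollicular epidermis. A low Gata6 level therefore cannot show that a cell is lin-. Krt14 and Krt5, the keratins of the basal layer, had reads in 78.7% to 96.4% of the lin- cells of a set. Ptprc, the leukocyte antigen CD45, stood at 0 in 3 sets and at 0.0229 ppm in the day 9 set of replicate 1. Since cells without CD45 were sorted, a low Ptprc level follows from the sort. No cell name and no set of values occurred more than once.

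Each value is a part per 1000000 of its cell's total (ppm). A set value is the mean of its cells, scaled to the other sets of the batch. Such a mean cannot tell fewer cells with a transcript from less of it per cell, so cell counts stand beside the main results. The 2 replicates were deposited in different units (read counts in replicate 1, values per gene length in replicate 2), so a level is compared between days within a replicate and never between replicates. The median depth of a cell was 5967310.5 and 4568793.5 reads in replicate 1 (day 9, day 11) and 2124404.5 and 2074708 in replicate 2. At equal depth the sets of replicate 1 differed in complexity. Cells thinned to 500000 reads had a median of 2814 genes at day 9 and 1636 at day 11 in replicate 1, against 2716 and 2855 in replicate 2. In replicate 1 the medians were 2867.5 and 1545 in cells annotated as basal interfollicular (20 and 15 cells). In outer bulge cells they were 2266 and 2189 (5 and 7 cells). Unwounded lin- cells had medians of 1457 and 1486. Of the tested genes, 1358 stood at 0 in the day 11 set of replicate 1, against 318 to 575 in the other 3 sets. These values accompany every difference in replicate 1, and their part in it was not tested. A further limit is that 2 annotated cells were nearly empty, with 18 reads in 8 genes (day 9, replicate 1) and 5 reads in 5 genes (day 11, replicate 2).

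No gene differed between day 11 and day 9 past the threshold. Over 10644 genes, limma with the batch as block and Benjamini-Hochberg adjustment called 0 (0%), and 271 genes had an unadjusted p under 0.05. Of these, 112 were higher at day 11 (1.05% of the genes tested) and 159 lower (1.49%). Where nothing differs, a test gives such a p for a share of 0.05 of genes on average, and the 271 lay below that share. edgeR's quasi-likelihood test on reads summed per set called 0 as well, with 162 at an unadjusted p under 0.05, while DESeq2 on the same sums called 191, 95 higher and 96 lower. The precision of 2 mice a day was low: the median standard error of a log2 fold change was 1.22, so that the 95% interval of a typical gene reached 6.28-fold to either side. For the 231 genes at 500 ppm or more the half-width was 1.86-fold. The adjusted p was 1 for each of the genes named in what follows, and their order and directions are a description.

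The genes named first are those with the smallest unadjusted p in each direction that also went the same way in both replicates and were present in a fair share of cells. Of the genes tested, 2253 (21.2%) were higher and 2627 (24.7%) lower in both replicates, so a shared direction alone is common. Ccn1 (chromosome 3, 145646971 to 145649985, GRCm38), a secreted matrix protein and a target of the mechanosensitive co-activator YAP, led the list. It stood at 94.4 ppm at day 9 and 1148 at day 11 in replicate 1, and at 279 and 582 in replicate 2. Both replicates were higher at day 11, by 12.1-fold and 2.08-fold, and the fitted log2 fold change was 2.32 (SE 0.52, 95% interval 1.20 to 3.45, unadjusted p = 0.000685). Unwounded lin- cells had 1518 and 2568 ppm, above both wound days of their replicate.

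The higher mean of Ccn1 came with more cells with reads and with higher values among them, by less in replicate 2. The counts include cells with traces, in replicate 2 at 0.511 and 2.05 ppm (day 9) and at 0.626 to 2.98 ppm (day 11). Cells with reads were 7 of 28 at day 9 and 13 of 26 at day 11 in replicate 1, and 17 of 44 and 21 of 47 in replicate 2. Among those cells the median was 367 and 1544 ppm in replicate 1 and 399 and 537 in replicate 2. Without the highest cell of each set the means were 57.3 and 935 in replicate 1 and 224 and 404 in replicate 2, in the same direction. Within the basal interfollicular cells (IFE-B in the annotation) Ccn1 went from 104 to 1852 in replicate 1 and from 147 to 241 in replicate 2. In outer bulge cells (OB) it went from 85.6 to 272 and from 538 to 1166.

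Krt15 (chromosome 11, 100131759 to 100135949), a keratin of resting basal cells and of bulge stem cells, stood at 4163 and 13273 ppm in replicate 1 and 4381 and 6548 in replicate 2. Day 11 was higher in both, with a log2 fold change of 1.13 (SE 0.38, 95% interval 0.31 to 1.94, unadjusted p = 0.0105). The median cell went the same way, from 1283 to 6783 ppm in replicate 1 and from 1362 to 1985 in replicate 2. Since OB cells carried more Krt15 than IFE-B cells, it was read within each identity. Within OB cells the means were 10254 and 27888 in replicate 1 and 9581 and 13102 in replicate 2. Within IFE-B cells they were 3019 and 9366, and 1661 and 1827. All 4 within-identity pairs were thus higher at day 11. The OB pair of replicate 1 rests on 5 and 7 cells, and the IFE-B values of replicate 2 lay close together. In replicate 2 Krt15 was read in 35 of 44 and 34 of 47 cells, and the lower quartile went from 0.400 to 0 ppm. Set means without the highest cell were 3509 and 10657 in replicate 1 and 3813 and 5383 in replicate 2, in the same direction.

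Lxn (chromosome 3, 67457999 to 67463907), which encodes a carboxypeptidase inhibitor, had 20.1 and 55.5 ppm in replicate 1 and 68.7 and 352 in replicate 2 (log2 fold change 1.88, SE 0.57, unadjusted p = 0.0058). In replicate 2 it was read in 12 of 44 cells at day 9 and 23 of 47 at day 11, while in replicate 1 a single day 11 cell held 54.3% of the set's total. Dapl1 (chromosome 2, 59484653 to 59505020), a gene of early epithelial differentiation, had 45.5 and 187 ppm and 502 and 2172. Its log2 difference was near 2 in both replicates, 2.01 and 2.11, but 1 OB cell gave 66.9% of the day 11 total in replicate 2. Without the highest cell of each set its values were 24.0 and 149, and 349 and 735, and within IFE-B cells they were 30.7 and 121, and 320 and 212, so that the direction in replicate 2 was not shared by IFE-B cells.

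Scd1 (chromosome 19, 44394450 to 44407709), a fatty acid desaturase abundant in sebocytes, stood at 25.2 and 305 ppm in replicate 1 and 54.8 and 115 in replicate 2. A single cell of each day 11 set held 79.0% (replicate 1) and 81.5% (replicate 2) of its total. Without the highest cell of each set the values were 14.4 and 66.8 in replicate 1 and 34.1 and 21.8 in replicate 2, so that replicate 2 turned. Both of those cells were annotated as sebaceous gland (SG). Gm13306 (chromosome 4, 42153404 to 42158846), a predicted gene in a cluster of near-identical copies of the chemokine gene Ccl27a, had 409 and 1754, and 178 and 514. Its reads cannot be told apart from those of the copies with certainty, and Ccl27a itself had a log2 fold change of 1.59 in the same direction.

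The other 6 genes of this direction were Ing4, Dsg2, Dera, Coq10b, Usp4 and Ift20, with unadjusted p between 0.0188 and 0.0377. Ing4, a reader of histone methylation, had 12.3 and 93.6 ppm and 14.5 and 79.0 (log2 fold change 2.60, SE 0.97). Dsg2, a desmosomal cadherin of basal and follicular keratinocytes, had 2.12 and 46.1 and 2.93 and 12.2. Usp4, a deubiquitinase, had 27.8 and 101, and 17.3 and 99.0, and in the day 9 set of replicate 1 a single cell gave 90.9% of its total.

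**Figure D1:**
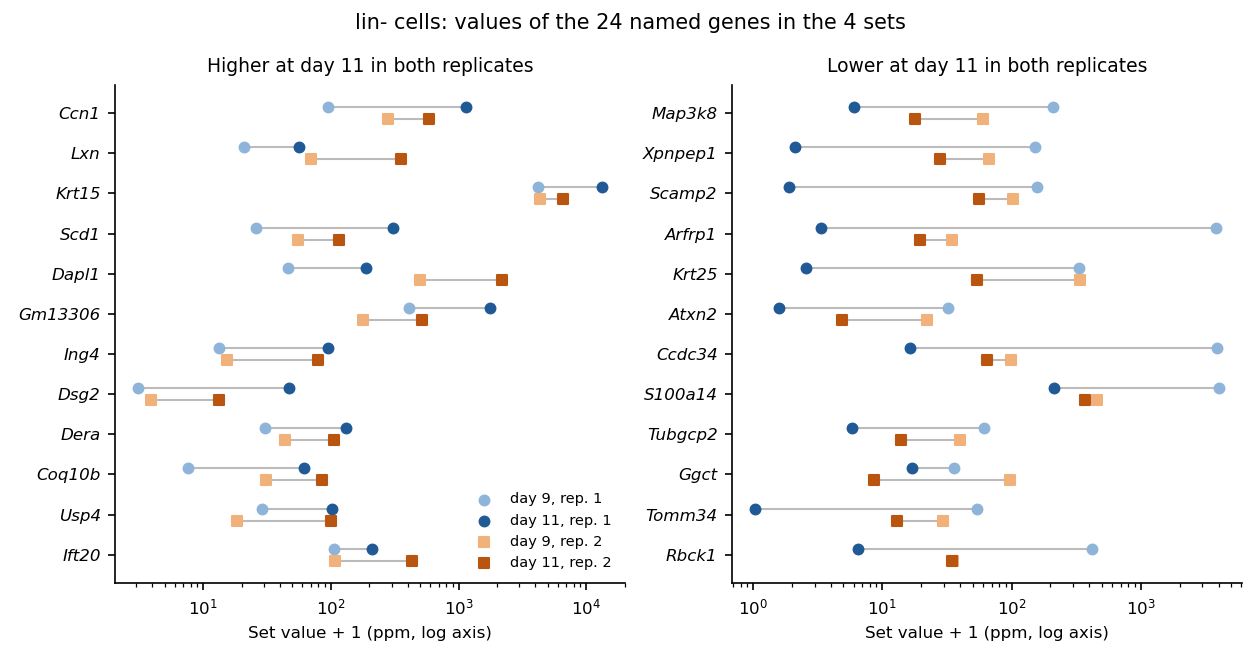
Set values of the 24 genes with the smallest unadjusted p among those that went 1 way in both replicates (12 higher at day 11 on the left, 12 lower on the right), as values (ppm) plus 1 on a log axis. Circles are replicate 1 and squares replicate 2, light for day 9 and dark for day 11, and a grey line joins the days. The lines of replicate 1 are the longer ones among most genes on the right, as for Rbck1 (420 to 5.49, against 33.9 to 33.4 in replicate 2).

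Among the 12 genes lower at day 11, the difference was larger in replicate 1 in each but Ggct, a gamma-glutamylcyclotransferase, which had 35.2 and 15.9 ppm in replicate 1 and 95.6 and 7.57 in replicate 2. Without the highest cell of each set Ggct had 19.4 and 1.40, and 36.3 and 4.51, so that its fold difference was then also larger in replicate 1. Atxn2 had 31.2 and 0.588, and 21.4 and 3.83, and Tubgcp2, a subunit of the gamma-tubulin complex, had 59.9 and 4.83, and 39.1 and 13.0. Map3k8, a kinase that activates the MEK and ERK cascade, stood at 209 and 5.07 ppm in replicate 1 and 59.1 and 16.9 in replicate 2 (log2 fold change -3.43, SE 0.92, 95% interval -5.43 to -1.43, unadjusted p = 0.00268). It was read in 8 of 28 and 2 of 26 cells, and in 10 of 44 and 6 of 47. A single cell held 70.5% of the day 9 total of replicate 1, and the other 27 cells averaged 64.0 against 0.342 ppm in the day 11 cells other than the highest.

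Xpnpep1, an aminopeptidase, had 150 and 1.10 ppm in replicate 1 and 65.4 and 26.9 in replicate 2. Scamp2, a carrier protein of secretory vesicles, had 157 and 0.906, and 102 and 55.3. Tomm34, a cochaperone of mitochondrial import, had 52.7 and 0.0401, and 28.5 and 12.0. These 3 were at 1.10 ppm or less in the day 11 set of replicate 1, and differed by 1.84-fold to 2.38-fold in replicate 2. Rbck1, a subunit of the linear ubiquitin ligase, differed by 65.0-fold in replicate 1 and by 1.02-fold in replicate 2.

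The places of Arfrp1, Ccdc34 and S100a14 in this group rested on the nearly empty cell of day 9, replicate 1. With 18 reads in all, its 2 reads of a gene came to 111111 ppm. Arfrp1 stood at 3839 ppm with that cell and at 42.7 without it, and its log2 fold change went from -5.49 (unadjusted p = 0.00847) to -2.26 (0.0992). For S100a14, a calcium-binding protein of the epidermis, the log2 fold change went from -2.26 to -0.17 (unadjusted p = 0.724). Ccdc34 went from -4.27 to -1.74. Without the nearly empty cells the test again called 0 genes, with 267 at an unadjusted p under 0.05.

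Krt25, a keratin of the inner root sheath of growing hair follicles, had 332 and 1.56 ppm in replicate 1 and 338 and 53.2 in replicate 2. It was read in 11 of 28 and 16 of 26 cells in replicate 1, and in 12 of 44 and 15 of 47 in replicate 2, but most of its level came from few of them. A single IFE-B cell held 99.7% of the day 9 total of replicate 1, where the other 27 cells averaged 0.916 ppm against 1.25 in the day 11 cells other than the highest.

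**Figure D2:**
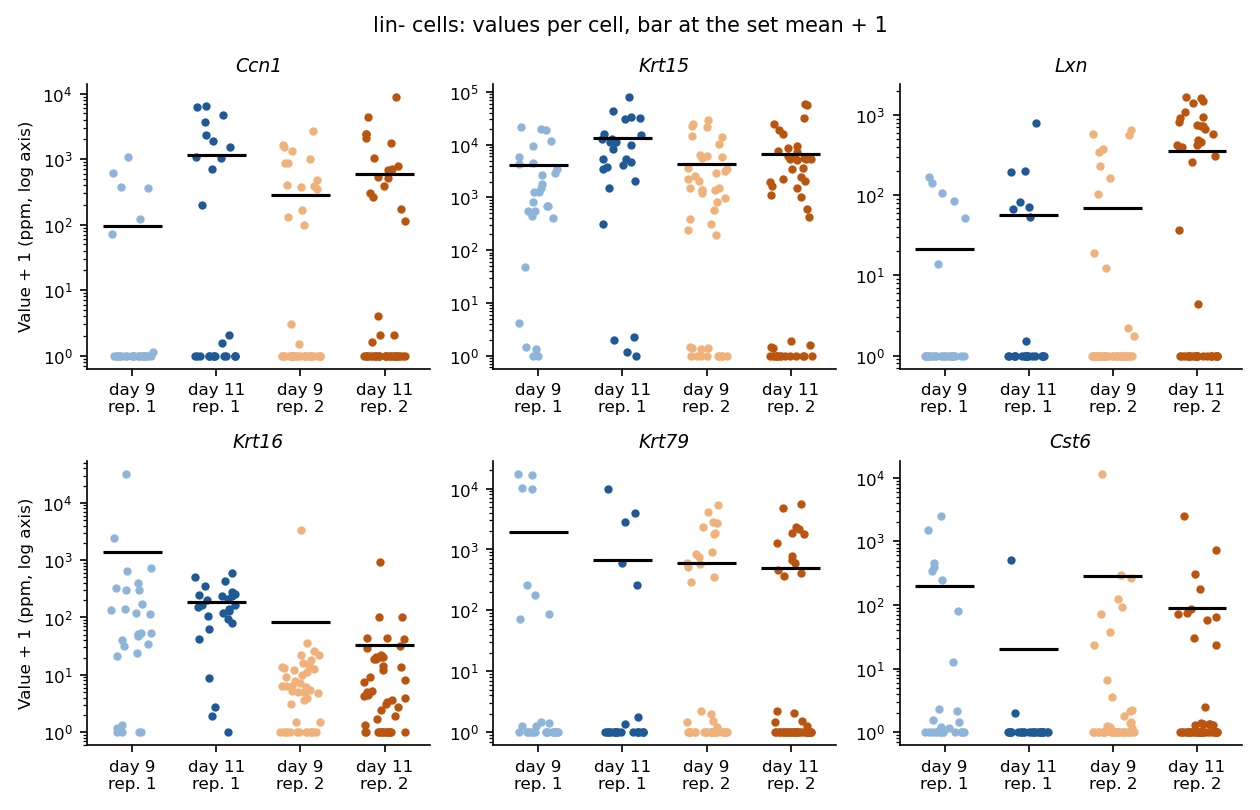
Values per cell of 6 named genes in the 4 sets, ppm plus 1 on a log axis, with a bar at the set mean plus 1; each point is 1 cell. The points of Krt15 lie higher at day 11 in replicate 1, while the day 9 means of Krt16 and Cst6 lie far above most of their cells.

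Wound keratins were lower at day 11 in both replicates in all 4 tested members, Krt6a, Krt6b, Krt16 and Krt17, with a median log2 fold change of -1.21 against -0.07 over all genes. The set values of Krt16 were 1361 and 185 ppm in replicate 1 and 82.0 and 32.4 in replicate 2 (log2 fold change -2.10, SE 0.80, unadjusted p = 0.0221). The median cell had 53.6 and 157 ppm in replicate 1, opposite to the mean, and 4.35 and 3.20 in replicate 2. A single IFE-DI cell (differentiated interfollicular) held 83.9% of the day 9 total of replicate 1. Without the highest cell of each set Krt16 averaged 227 and 168, and 6.65 and 12.8, so that replicate 2 turned.

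Krt6a, the keratin most used as a mark of activated epidermis, had 954 and 371 ppm in replicate 1 and 277 and 182 in replicate 2. Its median cell had 14.8 and 25.8 ppm in replicate 1, opposite to the mean, and 0.744 and 0.175 in replicate 2. Its means without the highest cell of each set were 422 and 271, and 202 and 113, in the direction of the set values. The 95% interval of its log2 fold change ran from -2.76 to 0.81. At 500000 reads it was read in 85.2% of cells (exact 95% interval 66.3% to 95.8%) and 73.1% (52.2% to 88.4%) in replicate 1. The shares in replicate 2 were 51.2% (35.5% to 66.7%) and 40.0% (25.7% to 55.7%), and the intervals overlap between the days in both. The median cell of Krt6b likewise went from 6.68 to 12.0 ppm in replicate 1, and from 0.344 to 0.177 in replicate 2. Krt17, also made in resting follicles, had 10902 and 9991, and 3823 and 3579, with a 95% interval of -0.94 to 0.72. The median of the 4 keratins was 0.08 within IFE-B cells and 0.75, higher at day 11, within OB cells.

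Genes of mitosis were lower at day 11 in replicate 1 and not, on the median, in replicate 2. The median log2 difference of the 27 genes of the list, each of which was tested, was -3.72 in replicate 1 and 0.34 in replicate 2, and 9 were lower and 0 higher in both. Ube2c, Plk1 and Cdk1 had an unadjusted p under 0.05. The summed level of the list was 1790 and 235 ppm in replicate 1 and 1191 and 1582 in replicate 2. Ube2c, a ubiquitin-conjugating enzyme of mitotic exit, had 199 and 0 ppm and then 134 and 133. Plk1, a mitotic kinase, had 124 and 0, and 45.5 and 41.3. Mki67, the antigen Ki67, had 66.2 and 9.86, and 29.0 and 25.3 (log2 fold change -1.41, 95% interval -3.85 to 1.03).

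Single cells gave the same picture at equal depth. Cells with at least 5 of the 27 mitosis genes (a cut chosen after the values were seen) made up 40.7% at day 9 (11 of 27, exact 95% interval 22.4% to 61.2%) and 3.85% at day 11 (1 of 26, 0.0973% to 19.6%) in replicate 1. In replicate 2 they made up 23.3% (10 of 43, 11.8% to 38.6%) and 35.6% (16 of 45, 21.9% to 51.2%). Exact intervals of cell shares, here and above, cover counting error only. Each set is 1 mouse, so they leave out the spread between mice. Before thinning the shares were 39.3%, 3.85%, 27.3% and 36.2%. The day 11 set of replicate 1 had the lowest share of the 4 sets, and the unwounded lin- cells had 11.4% and 6.25%. That set also had the fewest genes per cell of the 4 sets at equal depth (median 1636), while the unwounded lin- cells had 1457 and 1486. The part of gene number in the result was not tested.

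Most of these cells were IFE-B. Among IFE-B cells they numbered 10 of 20 and 1 of 15 in replicate 1 and 8 of 16 and 12 of 18 in replicate 2. Among OB cells they numbered 1 of 5 and 0 of 7 (exact 95% interval 0% to 41.0%), and then 2 of 18 and 3 of 20.

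**Figure D3:**
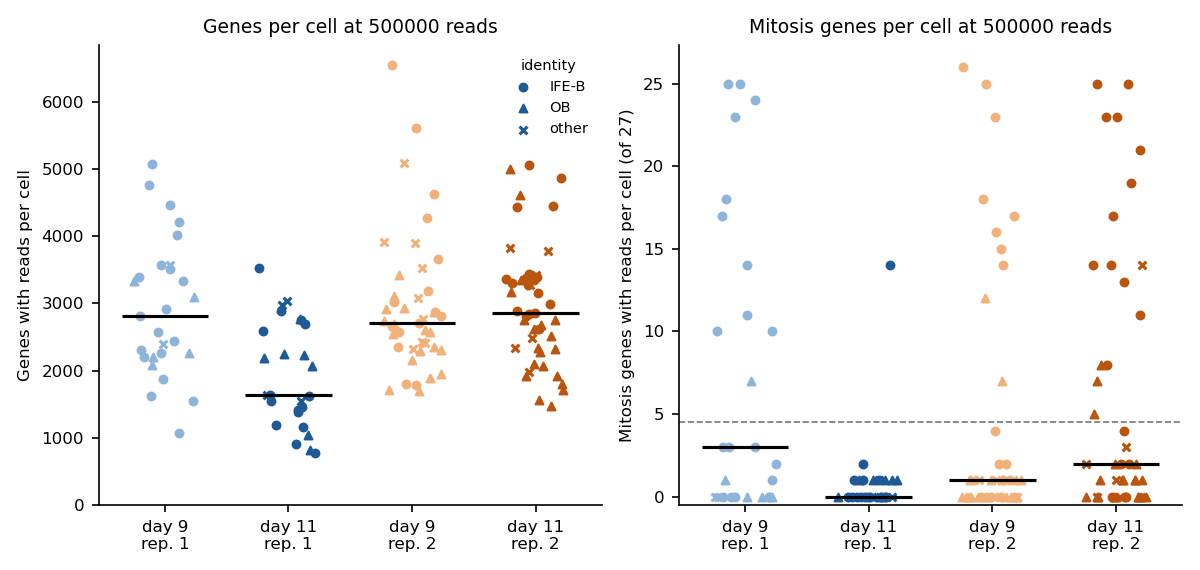
Genes with reads per cell (left) and mitosis genes with reads per cell, of 27 (right), in cells thinned to 500000 reads, with the marker showing the deposited identity and a bar at the median. The dashed line on the right lies between 4 and 5 genes: 1 cell of the day 11 set of replicate 1 lies above it, and 10 to 16 cells do in each of the other 3 sets.

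Of 29 tested genes of DNA replication, 14 were lower and 0 higher in both replicates. Their median log2 difference was -2.04 in replicate 1 and 0.02 in replicate 2. Their summed level was lower at day 11 in both, at 2148 and 509 ppm in replicate 1 and 1548 and 1428 in replicate 2. Gins2, a subunit of the replicative helicase, was the member with an unadjusted p under 0.05 that kept its direction, at 238 and 66.3 and at 85.3 and 50.3 (log2 fold change -1.29, SE 0.55). Tk1, a thymidine kinase, had 193 and 0 in replicate 1 and 68.7 and 84.8 in replicate 2.

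Markers of the upper follicle and the sebaceous duct, the compartment in which Gata6 is made, were tested for 10 genes. Lower values in both replicates were seen in 7 and higher values in 0, and the median log2 fold change was -0.87. Krt79, a keratin of the follicle opening, had 1951 and 675 ppm in replicate 1 and 588 and 488 in replicate 2 (log2 fold change -0.90, SE 0.38, unadjusted p = 0.0358). Cst6, a cysteine protease inhibitor, had 198 and 19.5, and 282 and 88.2. Defb6, a beta-defensin, had 218 and 1.17, and 481 and 434, and Klk10, a secreted protease, 96.4 and 0.236, and 170 and 33.8. These 4 members had unadjusted p values between 0.0169 and 0.0358. Klk10, like the other list members outside the rule for naming, was named after its values were seen.

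Such markers were concentrated in few lin- cells. The highest cell, annotated as upper follicle (uHF-I), held 92.6% of the Cst6 total and 99.9% of the Defb6 total in the day 9 set of replicate 2, and without it the other 43 cells averaged 21.3 and 0.358 ppm. The day 11 cells of replicate 2 other than the highest averaged 35.3 for Cst6 and 271 for Defb6, so that both genes turned to higher at day 11 in replicate 2 without the highest cell of each set. Krt79 kept its direction, at 1378 and 308 in replicate 1 and 475 and 379 in replicate 2. Over the whole list a single uHF-I cell held 41.0% (replicate 1) and 50.7% (replicate 2) of the summed level in the day 9 sets. Cells annotated as uHF-I numbered 1 of 28 and 1 of 26 in replicate 1 and 3 of 44 and 4 of 47 in replicate 2. Krt79 in lin+ cells, for comparison, had 4815 and 4423 in replicate 1 and 4131 and 1817 in replicate 2.

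Sebaceous genes went the other way, with 5 of 9 tested members higher in both replicates, 0 lower in both and a median log2 fold change of 1.55. The median difference was 3.15 in replicate 1 and 0.02 in replicate 2. Plin2, which coats lipid droplets, had 87.9 and 616 ppm in replicate 1 and 241 and 244 in replicate 2. Mgst1, a microsomal glutathione transferase, had 85.0 and 253, and 793 and 943. Without the highest cell of each set Mgst1 turned in replicate 1 (73.0 and 64.0) and Plin2 in replicate 2 (192 and 124). Mgst1 was read in 15 of 28 and 7 of 26 cells in replicate 1. SG cells numbered 0 of 28 at day 9, which allows a share of up to 10.7% (3 cells of the total; the exact interval reaches 12.3%), and 2 of 26 at day 11 in replicate 1, and 3 of 44 and 2 of 47 in replicate 2. One SG cell held 69.4% of the list's total in the day 11 set of replicate 1. In IFE-B cells the median of the list was -1.03.

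The identities themselves were compared as shares. IFE-B cells were 75.0% (21 of 28, exact 95% interval 55.1% to 89.3%) at day 9 and 57.7% (15 of 26, 36.9% to 76.6%) at day 11 in replicate 1. In replicate 2 they were 38.6% (17 of 44, 24.4% to 54.5%) and 42.6% (20 of 47, 28.3% to 57.8%). OB cells were 17.9% and 26.9% in replicate 1 and 40.9% and 42.6% in replicate 2. The intervals of the days overlap within each replicate, and the IFE-B share was lower at day 11 in replicate 1 and higher in replicate 2. Intervals cover counting error only.

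Krt14, the main basal keratin, had 16478 and 23041 ppm in replicate 1 and 3070 and 2584 in replicate 2, with a 95% interval of the log2 fold change of -0.83 to 1.07. Of 20 basal keratins, integrins and hemidesmosome genes, 4 were higher and 5 lower in both replicates, with a median of 0.00. Itga6, the integrin by which cells were also gated, had 50.7 and 26.1, and 35.9 and 22.3. Lama3, a chain of the basement membrane protein laminin-332, had 18.1 and 173, and 7.03 and 15.7 (log2 fold change 2.12, SE 0.98, unadjusted p = 0.0489).

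Immediate early genes, which signal stress and growth factor input and also respond to tissue dissociation, were higher in both replicates in 9 of 23 members and lower in both in 2. Their median log2 difference was 0.46 in replicate 1 and 0.35 in replicate 2. Egr1 had 1477 and 3046 ppm in replicate 1 and 383 and 488 in replicate 2. Dusp1, a phosphatase that ends MAP kinase signalling, had 1458 and 4153, and 157 and 315. Atf3, a stress transcription factor, had 994 and 2207, and 405 and 587. The interval of each of the 3 includes 0, for Egr1 from -0.20 to 1.59. The median cell was lower at day 11 for Egr1 in replicate 2 (146 and 110 ppm) and for Atf3 in replicate 1 (360 and 289), and in OB cells the median of the list was -0.56.

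Of the Id, BMP and TGF-beta genes, 9 of 18 tested were higher in both replicates and 2 lower, with a median log2 fold change of 0.53. Id2, an inhibitor of differentiation-promoting helix-loop-helix factors, had 118 and 201.2 ppm in replicate 1 and 616 and 1517 in replicate 2 (log2 fold change 1.03, SE 0.52). In replicate 2 it was read in 21 of 44 cells at day 9 and 33 of 47 at day 11, while in replicate 1 it was read in 8 of 28 and 6 of 26. Id1 had 290 and 639, and 258 and 390, and Id3 had 871 and 1091, and 588 and 813. For Id3 cells with reads were 19 of 28 and 10 of 26 in replicate 1, where the median cell went from 323 ppm to 0 and the mean without the highest cell from 701 to 657, opposite to the set value. None of the 3 had an unadjusted p under 0.05.

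In the Notch pathway, which drives keratinocytes from the basal to the spinous layer, 7 of 12 tested members were lower and 1 higher in both replicates. The median log2 fold change was -0.73. The receptor Notch2 had 23.0 and 2.25 ppm and 21.2 and 15.8, while the target Hes1 was the member higher in both, at 98.7 and 279 and at 487 and 583. Epidermal transcription factors had 13 of 27 members lower and 3 higher in both replicates, with a median of -0.42. Gata3, a factor of barrier formation, had 193 and 138, and 613 and 364, and its 95% interval ran from -1.93 to 0.69.

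Of 18 cornified envelope genes 9 were tested, with 2 higher and 3 lower in both replicates and a median of -0.96. Sprr1b, a cross-linked precursor of the envelope, had 112 and 0 ppm and 64.0 and 11.6 (unadjusted p = 0.012). It was read in 5 and 0 cells in replicate 1 and in 2 and 2 cells in replicate 2, where the cells other than the highest averaged 0.00782 and 2.67, the opposite direction. Krt1 had 299 and 18.8, and 312 and 173, but an IFE-DI cell held 76.5% to 100% of the total of each set. Krtdap had 319 and 355, and 1764 and 2030. It was read in 10 of 28 and 7 of 26 cells, and in 16 of 44 and 8 of 47, and without the highest cell of each set replicate 1 turned, to 202 and 154.

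Markers of other cell types were read beside these results. Of 11 immune genes 3 could be tested, and their summed level was 0.0991 and 39.4 ppm in replicate 1 and 112 and 168 in replicate 2, with Ptprc at or near 0. Cd68, a lysosomal protein of macrophages, was the member higher in both, at 0.0712 and 39.4 and at 0 and 36.6 (log2 fold change 5.23, unadjusted p = 0.00262, named after its values were seen). One cell held 99.3% of the list's total in the day 11 set of replicate 1 and another 96.6% in that of replicate 2. Cd74, the invariant chain of class II, had 0.285 and 18.8, and 4.22 and 52.4. The Langerhans and class II list, to which it belongs, had 2 of 5 tested members higher in both replicates and 0 lower, with sums of 52.7 and 70.9, and 116 and 198. Fibroblast genes summed to at most 9.19 ppm in a set and endothelial genes to 87.3, of which 99.9% came from 1 IFE-B cell (day 9, replicate 1), and 0 genes of either list were tested. The study reports that some fibroblasts were left out, so the fibroblast level cannot show how many were sorted. Melanocyte genes, 4 of 5 tested lower in both, summed to 40.2 and 0, and 3341 and 2430, mostly from 1 OB cell in each set of replicate 2. Erythroid genes summed to 0.00488 and 134, and 10.2 and 11.7, with both tested members higher in both replicates. The part of these cells in the results was not tested.

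Of the 27 lists by function, mitosis had the lowest fitted median and wound keratins the lowest among those with the same sign in both replicates, at -1.52 and -0.91. For all genes the medians were -0.08 and 0.00. Ribosomal proteins had a median of -0.15 over 59 genes, with 12 higher and 13 lower in both. Nuclear-encoded respiratory chain genes had 15 of 35 lower and 2 higher in both, with a median of -0.34, and Ndufb8, a subunit of complex I, had 905 and 389, and 2286 and 1682 (unadjusted p = 0.0223).

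Structural and stress lists had medians between -0.23 and 0.20. Actin cytoskeleton and migration genes, the machinery with which keratinocytes crawl, had 8 of 36 higher and 5 lower in both replicates, with a median of 0.10. Desmosomes and cell junctions had 5 of 21 higher and 6 lower (median -0.11), and wound matrix genes, proteases and inhibitors had 2 of 20 higher and 3 lower (0.02). Suprabasal differentiation had 2 of 18 higher and 5 lower (-0.06). Heat shock genes had 0 of 17 higher and 3 lower (-0.23), metallothioneins and antioxidants 8 of 20 and 3 (0.05), and amino acid stress genes 2 of 16 and 3 (-0.22). Genes of p53 and cell-cycle arrest had 6 of 18 higher and 2 lower (0.20).

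Signalling and metabolic lists gave medians between -0.26 and 0.98. Alarmins, cytokines and chemokines had 5 of 18 tested members higher and 3 lower in both replicates (median 0.56), and interferon and MHC class I genes 2 of 19 and 2 (0.08). In the second of these Psmb9, a subunit of the immunoproteasome, had 134 and 29.4 ppm in replicate 1 and 76.4 and 44.9 in replicate 2 (unadjusted p = 0.0457). EGF receptor ligands and ERK feedback genes had 4 of 17 higher and 3 lower (0.24), and Wnt pathway genes 3 of 18 and 0 (0.00). The YAP and MAL list had 5 of 13 and 2 (0.98, with 0.67 in replicate 1, 0.01 in replicate 2 and -0.22 in IFE-B cells), cholesterol and fatty acid synthesis 7 of 25 and 8 (0.25), Myc and ribosome biogenesis 2 of 25 and 7 (-0.13), and glycolysis and hypoxia 3 of 22 and 11 (-0.26).

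Of the keratinocyte identity lists not yet given, outer bulge markers had 3 of 10 higher and 1 lower in both replicates (median 0.03). Lgr5, a stem cell marker of the lower bulge, was the lower member, at 62.2 and 0.127 ppm in replicate 1 and 81.4 and 59.9 in replicate 2 (log2 fold change -3.12, 95% interval -6.31 to 0.06). Interfollicular basal markers had 2 of 8 higher and 2 lower (-0.18), and interfollicular suprabasal markers 1 of 6 and 1 (0.19). Myc, a growth-promoting transcription factor, had 443 and 415 in replicate 1 and 144 and 92.8 in replicate 2, with an interval of its log2 fold change from -2.34 to 1.62.

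**Figure D4:**
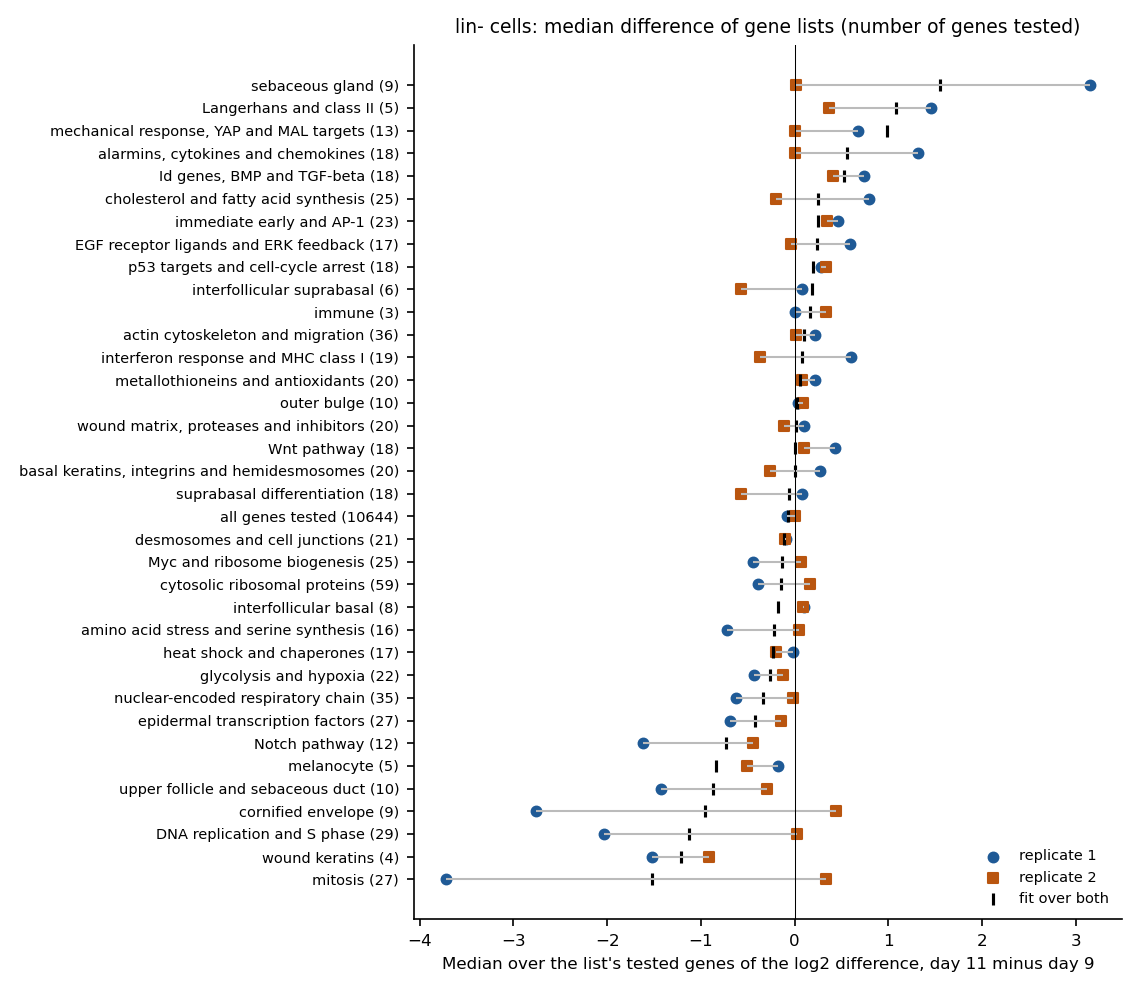
Median log2 difference, day 11 minus day 9, over the tested genes of each list (number in brackets), in replicate 1 (circles), replicate 2 (squares) and in the fit over both (ticks, the median of the fitted values and so not always between the 2). Mitosis and DNA replication lie below -2 in replicate 1 and at 0.34 and 0.02 in replicate 2.

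The replicates did not share an order of genes. Across the 10644 genes the differences of the 2 replicates had a Pearson correlation of -0.04, with a spread (SD) of 2.14 in replicate 1 and 1.22 in replicate 2. Genes are not independent replicates and the correlation is given as a description. More than 2-fold differences in both were shared in direction by 381 genes higher and 504 lower, and opposite in 462 and 582. Among the 231 genes at 500 ppm or more, 54 differed by more than 2-fold in replicate 1 and 13 in replicate 2.

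**Figure D5:**
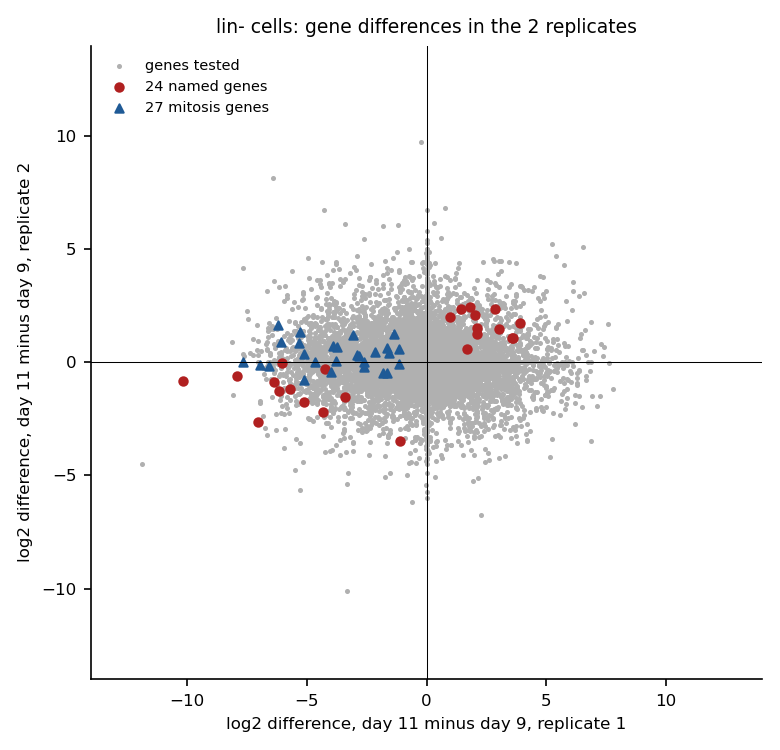
Each grey point is 1 of 10644 tested genes, with its log2 difference (day 11 minus day 9) in replicate 1 on the x axis and in replicate 2 on the y axis; red points are the 24 genes named first and blue triangles the 27 mitosis genes. The cloud is wider along x (SD 2.14) than along y (SD 1.22), and the mitosis genes lie left of 0 on the x axis (median -3.72) and to both sides of 0 on the y axis (median 0.34).

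lin+ cells of the same skin were set beside these values, in the same fit. Between the same days limma called 0 genes in lin+ cells, with 180 of 10644 (1.69%) at an unadjusted p under 0.05. The difference of the lin- and lin+ changes was called for 0 genes as well, with 176 (1.65%) at an unadjusted p under 0.05, so a change particular to lin- cells was not shown. Both lineages of a day and replicate came from the same mouse, by the study's methods, and the fit did not use that pairing. Ccn1 in lin+ cells had 263 and 298 ppm in replicate 1 and 408 and 671 in replicate 2, a log2 fold change of 0.45. The difference of its changes was 1.88 (SE 0.74, unadjusted p = 0.0248, adjusted p = 1). Gm13306 was lower at day 11 in lin+ cells, at 2853 and 1207 and at 2813 and 1628, opposite to lin- cells in both replicates (difference 2.83, SE 0.92, unadjusted p = 0.00894, adjusted p = 1).

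Holding the cells to 1 identity did not add calls. In IFE-B cells limma called 0 of 10328 genes, with 376 (3.64%) at an unadjusted p under 0.05. Ccn1 kept its direction there (log2 fold change 2.42, unadjusted p = 0.00661), as did Map3k8 (-2.71), Ing4 (2.81) and Krt15 (0.88), while Scd1 was at -1.30, the only 1 of the 24 genes named first to change sign. The IFE-B cells are part of the cells whose values chose these 24 genes, so a kept direction is not a separate test.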

How the data were processed

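Single keratinocytes were sorted from wounds and unwounded skin, and 684 annotated cells of 753 samples form 14 sets of 1 lineage, day and replicate. Per the labels, the authors used Trimmomatic (0.27), STAR (2.2), GRCm38 and featureCounts, and Seurat (3.2.2). The combined table as deposited holds raw read counts for the first batch (222 cells, replicate 1). For the second batch (462 cells, replicate 2 and day 6) the deposited values are RPKM, as found from the values. A total of 1048 per-sample columns of other deposited tables, natural-log values among them, were not used. The authors' methods state a minimum of 200 genes per cell, which 4 annotated lin- cells of the series do not reach.

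Values of a cell were divided by its total and multiplied by 1000000 (ppm), and the mean over a set was taken, and 344 genes listed under another symbol in each batch were merged. Median-of-ratios factors, from genes above 5 ppm in each set of a batch, brought the sets of that batch to 1 scale. limma (3.58.1), with a trend and moderated variances, was fitted to log2(value + 1) of all 14 sets for 10644 genes with at least 10 ppm in at least 2 sets. It had 1 coefficient per lineage and day and the batch as block (5 residual and 7.658 prior degrees of freedom). Fold changes on this scale understate those of low genes. The threshold was an adjusted p of 0.05 (Benjamini-Hochberg). Replicate numbers mark the batch at days 0, 9 and 11, while the day 6 sets are numbered replicate 1 and lie in the second batch. Days 9 and 11 used different mice. Deviations of same-numbered lin- sets from their day's mean correlated at 0.382 across genes, and at -0.16 after the batch term over all sets. By the study's methods, the lin- and lin+ sets of a replicate share a mouse at day 9 and at day 11, and unwounded skin came from mice of those days. The fit had no term for the mouse, so each p-value measures the spread between sets, taken as independent.

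Second-batch reads were recovered with gene lengths found from cells deposited in both units. All recovered values below 200 reads lay within 0.02 of a whole number. They served edgeR (4.0.16) and DESeq2 (1.42.0), both alternatives, and thinning to 500000 reads. The design as planned was used, and the tests were tried on simulated data. Identities are the authors' own. No doublet caller was run. Coordinates and symbols are from RefSeq on GRCm38.

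Genes were named by a rule: in each direction the 12 with the smallest unadjusted p (none passed the threshold) among those of the same direction in both replicates, with at least 20 ppm on the higher day and reads in at least 20% of that day's cells in each replicate. Added were genes the study names and up to 4 of the most abundant members of each list (171 genes in all). The members and the gene lists (27 of functions, 11 of cell types) were chosen with earlier results of these data known.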

Additional observations from a re-analysis of the deposited data

How the results depend on the processing

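The count of genes past the threshold was 0 in lin- cells and stayed at 0 with 10 added before the log, with a filter at 50 ppm, with scaling to the cell total alone, with the 4 or the 7 lin- sets alone, with sets weighted by their number of cells, with means of logs, with edgeR (TMM or RLE), in IFE-B cells, and, chosen after seeing the data, in OB cells and without the nearly empty cells. Without the replicate block it was 0 as well, and the genes at an unadjusted p under 0.05 numbered 130 in place of 271, and the block changed no call in lin+ cells or in the difference of the changes (0 in both). With means of logs 848 of 10644 genes had an unadjusted p under 0.05. Without a filter on low values 7 genes passed in lin- cells (2 higher, 5 lower), the highest at 11.6 ppm in a set, and 5 in lin+ cells. DESeq2 called 191, of which 117 went 1 way in both replicates and 2 (Ccn1 and Dsg2) are among the 24 genes named first. The cause of these differences was not tested. Leaving out a replicate or a set gave 0 to 3 calls: Ndufb4b without the day 11 set of replicate 1, which rests on 1 read of the nearly empty cell, and Ints11, Defb6 and Scamp2 without the day 11 set of replicate 2. With an arm of 1 set, that set is assumed to vary like the others. Of the 171 named genes, 51 changed sign without replicate 1 and 21 without replicate 2, against 0 of the 24 named first, whose direction in both replicates the rule fixes. In IFE-B cells 41 of 170 changed sign. In the day 11 set of replicate 1, 2444 tested genes lay under 1 ppm, against 745 to 1480 in the other 3 sets, and its median of reads a cell was above that of the day 11 set of replicate 2; the cause was not tested.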

Other observations

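Several genes with small unadjusted p values did not meet the rule for naming, since few cells carried them, and were singled out after their values were seen. Tapbpl, which loads peptides on MHC class I, had the smallest, with 0.323 and 54.8 ppm in replicate 1 and 0.747 and 43.9 in replicate 2 (day 9, then day 11; adjusted p = 1). Slc25a29, a mitochondrial carrier of basic amino acids, was at 0 in both day 9 sets and at 90.9 and 33.0 in the day 11 sets. Wdr53 was at 38.3 and 49.6 in the day 9 sets and at 0 in both day 11 sets. Egln3, a prolyl hydroxylase induced in hypoxia, had 101 and 0, and 9.86 and 0.168. Il1r2, a decoy receptor of interleukin-1, had 3.68 and 146, and 0.0151 and 8.11, and Il1rn, a secreted antagonist of the same receptor, had 16.9 and 2.70, and 41.7 and 13.4. Wnt6 had 0.0533 and 72.8, and 0 and 10.8.

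Of the YAP and MAL target list, to which Ccn1 belongs, Ccn2, the closest relative of Ccn1, had 40.6 and 151 ppm in replicate 1 and 5.86 and 13.3 in replicate 2 (log2 fold change 1.46, SE 1.46). Lmna, a nuclear lamin, had 1770 and 1864, and 1101 and 961. Cdkn1b, an inhibitor of cyclin-dependent kinases, had 8.18 and 30.1, and 50.7 and 63.2 (log2 fold change 1.04, SE 0.91).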
